A study of Homo sapiens with 24 samples.

Results

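The constitutive proteasome subunits were taken as the protein-coding genes whose symbol is PSMA, PSMB, PSMC or PSMD followed by digits alone, without the immunoproteasome genes PSMB8, PSMB9 and PSMB10. The rule found 36 of the 60675 gene IDs: 8 genes of the alpha ring, 8 of the beta ring, 6 ATPases of the base, 3 other base genes, 8 lid genes and 3 assembly chaperones. Their mRNA was measured in bulk RNA of HCT116, a colorectal carcinoma cell line, in 3 lines that carry wild-type p53 (WT), a mutant p53 (Mutant) or no p53 (Null), by their labels. The treatments of a line were 20 uM APR-246, 6 Gy of irradiation, APR-246 followed by irradiation (combination), and solvent as the control. Every group has 2 libraries, which makes 24 in all, harvested 72 hours after the time of irradiation. APR-246 is a small molecule developed to restore activity to mutant p53. The labels name neither the p53 mutation, the solvent, nor how long APR-246 was given, and 1 line stands for each p53 status, so line and p53 status cannot be told apart. The replicates are numbered without a statement that they were separate cultures, so the p-values speak to the spread among these libraries alone. In bulk RNA, fewer cells of a kind and less RNA per cell cannot be told apart.

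The proteasome is the protease complex that degrades most proteins tagged with ubiquitin. Its core is a barrel in which outer alpha rings gate the entry and inner beta rings carry the cutting sites, in PSMB5, PSMB6 and PSMB7. A regulatory cap holds a base, where the PSMC ATPases unfold the substrate, and a lid, where PSMD14 removes the ubiquitin chain. The subunits are made in matched amounts, and their genes are known to be raised together by the transcription factor NFE2L1 when proteasome activity falls short. NFE2L1 binds antioxidant response elements, which share the core TGACNNNGC.

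Promoters of 4 genes are shown because they belong to the members with the largest average change over the 3 treatments among those that hold the looser core TGANNNNGC. The windows run from 250 bases before to 50 bases after the RefSeq transcription start (GRCh38.p14), 5′ to 3′ on the strand of the gene. Capitals mark matches to TGANNNNGC or, on the other strand, to GCNNNNTCA. The windows of PSMB4, PSMB3, PSMA5 and PSMB5 hold 3, 1, 5 and 2 matches and lie at chr1:151399323-151399622 on the plus strand, chr17:38752491-38752790 on the plus strand, chr1:109426399-109426698 on the minus strand and chr14:23035171-23035470 on the minus strand.
PSMB4: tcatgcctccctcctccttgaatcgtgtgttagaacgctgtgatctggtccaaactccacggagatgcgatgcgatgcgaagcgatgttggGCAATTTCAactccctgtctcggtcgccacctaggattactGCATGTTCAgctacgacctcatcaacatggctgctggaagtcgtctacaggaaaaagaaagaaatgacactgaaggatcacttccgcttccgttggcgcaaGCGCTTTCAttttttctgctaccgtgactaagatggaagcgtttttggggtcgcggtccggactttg
PSMB3: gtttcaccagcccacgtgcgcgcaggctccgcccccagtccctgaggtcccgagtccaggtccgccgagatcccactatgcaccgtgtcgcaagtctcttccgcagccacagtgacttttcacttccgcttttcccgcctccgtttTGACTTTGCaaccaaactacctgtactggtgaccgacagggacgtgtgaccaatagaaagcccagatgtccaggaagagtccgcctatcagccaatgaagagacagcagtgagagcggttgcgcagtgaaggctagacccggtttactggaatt
PSMA5: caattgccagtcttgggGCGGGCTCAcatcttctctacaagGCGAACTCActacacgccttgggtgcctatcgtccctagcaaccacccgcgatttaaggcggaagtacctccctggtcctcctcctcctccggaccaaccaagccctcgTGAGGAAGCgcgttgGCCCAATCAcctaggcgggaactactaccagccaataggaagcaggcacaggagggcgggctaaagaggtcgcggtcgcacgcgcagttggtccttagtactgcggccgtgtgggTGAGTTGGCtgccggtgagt
PSMB5: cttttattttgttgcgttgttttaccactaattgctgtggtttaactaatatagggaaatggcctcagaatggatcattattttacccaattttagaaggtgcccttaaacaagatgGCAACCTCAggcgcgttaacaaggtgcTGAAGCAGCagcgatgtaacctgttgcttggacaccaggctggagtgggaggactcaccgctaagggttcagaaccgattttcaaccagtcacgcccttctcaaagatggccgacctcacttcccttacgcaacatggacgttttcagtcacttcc

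RefSeq windows were found for 31 of the 36 members, and 19 of these (61.3%) held TGANNNNGC on either strand, beside 42.1% of all 27305 windows of this length. The tighter core TGACNNNGC, whose matches are also matches to TGANNNNGC, was in 7 windows (22.6%, beside 13.6%): those of PSMB3, PSMC4, PSMD1, PSMD12, PSMD3, PSMD5 and PSMD9. The ETS-type motif CCGGAA was in 16 (51.6%, beside 17.6%) and CCAAT in 16 (51.6%, beside 35.7%). These are matches of letters in a window and not sites shown to be bound. PSMB1, PSMB6, PSMB7, PSMA7 and PSMD4 had no window in the table.

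The libraries held 53184139 to 58058729 reads assigned to genes, so that 3 reads, taken as the floor, are worth 0.0517 to 0.0564 CPM, the reads of a gene scaled to a common total per library. Of the values of 2 to 9 reads, 74.5% to 81.5% per library were even, and whether both reads of a pair were counted is not stated, so that a floor in reads may stand for fewer fragments. Of the 36 members, 34 passed the filter on low values and were tested among 20668 genes. PSMA8, the alpha subunit of the testis proteasome, had 0 reads in 21 libraries and at most 0.0364 CPM. PSMB11, the catalytic subunit of the thymus proteasome, had 0 reads in 16 libraries and at most 0.110 CPM. Markers of colon epithelium (8 genes) summed to 4773 to 17231 CPM per library, those of fibroblasts (6 genes) to 11.8 to 69.0 and of endothelium (3 genes) to 0.741 to 3.91 CPM, with 0 markers at 0 in every library. Those of blood cells (6 genes) summed to 0.422 to 1.07 CPM with APR-246, 1.03 to 2.50 with irradiation, 0.884 to 3.01 in the combination and 0.231 to 1.04 in solvent. Among these markers limma called CDH1 lower after irradiation (-0.76, Benjamini-Hochberg adjusted p = 0.0416) and in the combination (-0.84, adjusted p = 0.0241). Markers called higher included CD14 in both (1.04 and 1.21) and CDH5 in the combination (0.33). Their part in the results was not tested. Libraries differed in how strongly expression followed the GC content of genes: the log2 value shifted per 10 points of GC by -0.37 to 0.29 with APR-246, -0.14 to 0.41 with irradiation, -0.46 to 0.60 in the combination and -0.65 to 0.34 in solvent. These ranges overlap, but the medians differed, at -0.015, 0.21, -0.16 and -0.0094. A second limma fit with this slope as a covariate is given beside the main one as "with the GC slope". The slope is taken from the same values and its median differs by treatment. Part of a treatment difference may thus be assigned to the slope, or the reverse, which was not tested.

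In the deposited CPM the proteasome genes took up the largest share of reads in the combination and the smallest in solvent, at the median library. The CPM summed to 3261, 4375 and 5269 (lowest, median and highest of 6 libraries) with APR-246, 3769, 4419 and 4727 with irradiation, 4220.0, 5042 and 5387 in the combination, and 3211, 3321 and 3764 in solvent. That is 0.437%, 0.442%, 0.504% and 0.332% of all reads at the median. Every irradiation and combination library lay above every solvent library, the lowest irradiation library barely, while WT APR-246 library 1 lay among the solvent libraries. After TMM scaling, which corrects for the make-up of each library, the ranges overlapped: 2805 to 6369 with APR-246, 3245 to 5539 with irradiation, 3482 to 6642 in the combination and 2544 to 5076 in solvent. The medians of these sums, 4594 with APR-246, 4746 with irradiation, 4589.8 in the combination and 3668 in solvent, no longer put the combination first. The median log2 deviation of the tested members on that scale still did, at the median library. It was 0.051 with APR-246, 0.020 with irradiation, 0.18 in the combination and -0.17 in solvent, again with overlapping ranges. In 11 of the 12 groups the library numbered 2 had the higher median deviation of the members on that scale.

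**Figure D1:**
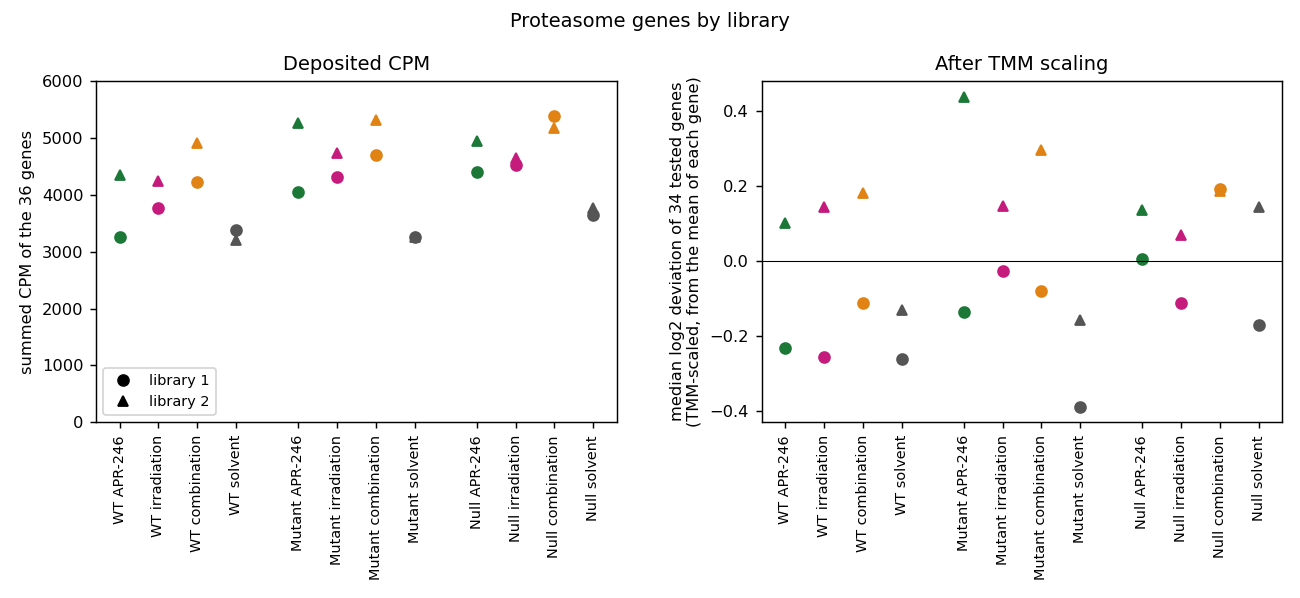
Left, summed CPM of the 36 proteasome genes in each library (vertical axis from 0); right, the median over the 34 tested genes of the log2 deviation of the TMM-scaled value from the mean of each gene. Columns are the 12 groups, circles library 1 and triangles library 2. On the left all 6 combination libraries lie between 4220.0 and 5387, above all 6 solvent libraries at 3211 to 3764; on the right triangles lie above circles in 11 of 12 groups.

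Levels per kilobase of exon ran from 201 to 0.0410 CPM per kilobase among the tested members. The length joins all annotated exons of a gene, 1179 bases for PSMB3 and 9123 for PSMD6, whether or not these cells use them. The order of genes and roles on this scale thus depends on the annotation, and its effect was not tested. PSMA7, an alpha-ring gene, was highest at 201 ± 40.6 CPM per kilobase (SD over the 24 libraries), followed by PSMB3 at 148 ± 46.9 and PSMB4 at 114 ± 32.7, both structural genes of the beta ring. The catalytic PSMB6, PSMB5 and PSMB7 had 88.9 ± 22.6, 86.2 ± 19.9 and 80.6 ± 14.9 CPM per kilobase, means less than any of these SDs apart. PSMC3, PSMD2, PSMD8 and PSMC4 were close to them at 91.8, 86.8, 85.2 and 84.4. The SDs also hold differences between treatments and lines, and differences between genes within a library were not tested. The median tested member of the beta ring had 86.2 CPM per kilobase, of the non-ATPase base 55.0, of the base ATPases 20.9, of the lid 14.6, of the alpha ring 10.9 and of the chaperones 6.09.

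The lowest 4 of the 34 were PSMA1 (2.20 CPM per kilobase), PSMD9 (0.802), PSMA6 (0.582) and PSMA2 (0.0410). They are also the 4 whose coding exons GENCODE 29 gives to a second gene on the same strand, for 88.6%, 58.7%, 70.4% and 97.1% of their coding bases. Those second genes were themselves near 0: at most 0.155 CPM for the partners of PSMA1, PSMA6 and PSMA2, and 0.461 to 2.65 CPM for WDR66, one of the partners of PSMD9. Reads in shared exons may be counted for neither gene, so the levels of these 4 members are uncertain, and the effect of the overlap on them was not tested. Without them the median was 13.1 CPM per kilobase for 4 alpha genes and 9.41 for 2 chaperones. PSMC1 shares 75.8% of its exon bases with NRDE2 on the opposite strand, PSMD7 30.7% with AC009120.2 and PSMC5 19.5% with FTSJ3, and no strand setting is stated for the counting. There are 36 pseudogenes of 15 members, at most at 2.17 CPM.

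**Figure D2:**
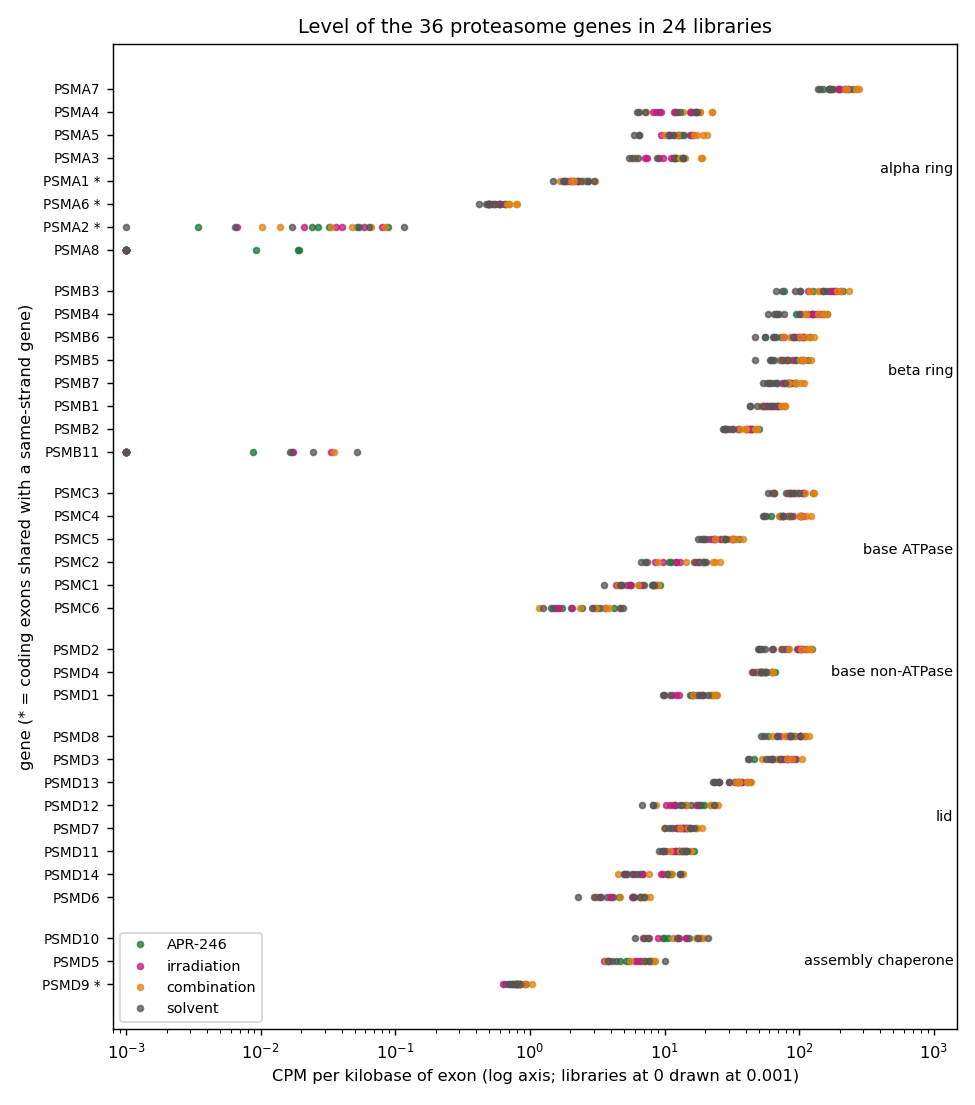
CPM per kilobase of exon (log axis, libraries at 0 drawn at 0.001) for each of the 36 genes, grouped by role, with 1 point per library coloured by treatment. An asterisk marks the 4 genes that share coding exons with a gene on the same strand. Their means over the 24 libraries lie below those of all other tested genes, though single libraries overlap. PSMA7, with libraries at 137 to 277, has the highest mean.

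**Figure D3:**
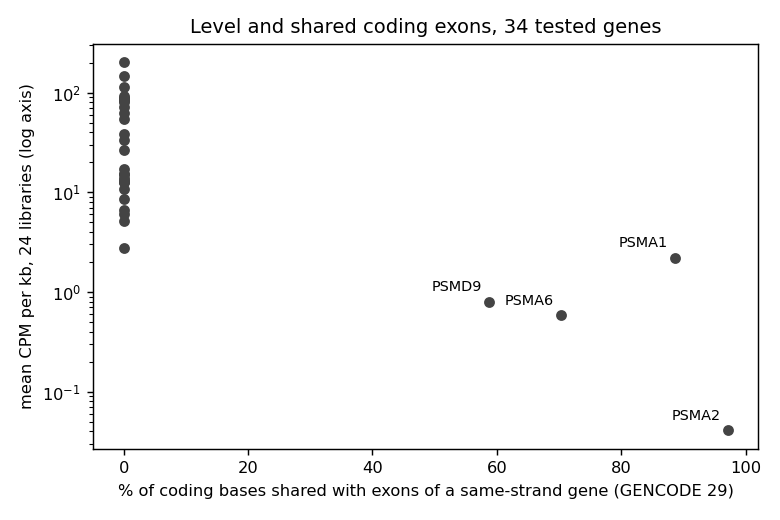
Mean CPM per kilobase over 24 libraries (log axis) against the percentage of coding bases shared with a gene on the same strand, for the 34 tested genes. The 30 genes at 0% lie at or above 2.74, and the 4 with shared exons between 0.0410 and 2.20.

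Averaged over the 3 lines, the proteasome genes lay above their solvent level for most members in each treatment, by small amounts. The median member was 0.22 higher on the log2 scale with APR-246, 0.16 with irradiation and 0.33 in the combination, beside -0.01, -0.01 and 0.01 for all genes tested. The value was above 0 for 29, 25 and 33 of the 34 members, beside 48.6%, 48.9% and 50.7% of all genes. These medians were 0.19, 0.06 and 0.32 with the GC slope, beside 0.00, 0.03 and 0.02 for all genes, with 30, 23 and 31 members above 0, beside 50.2%, 53.5% and 52.1% of all genes, so that with irradiation the members lay close to all genes in that fit. PSMA5 in the combination was the single member that passed the main limma test, which has no term for the replicate number or the GC slope. The 3 comparisons share their solvent libraries, so they are not independent of each other.

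With APR-246, limma called 0 of 34 members, where 3.15% of all genes were called in either direction. PSMA5 was the 1 member with an unadjusted p under 0.05, edgeR called 0 members (2.87% of all genes) and DESeq2 called PSMA5 higher (7.26%). Under the GC slope 13 members rose and 0 fell, where 13.5% of all genes rose and 13.9% fell: PSMA4, PSMA5, PSMB2, PSMB3, PSMB4, PSMB5, PSMB6, PSMD1, PSMD2, PSMD6, PSMD12, PSMD13 and PSMD10. That count was 6 without WT solvent library 2, WT APR-246 library 2 or Mutant solvent library 2, 5 without Mutant APR-246 library 2 and 4 without Null APR-246 library 2.

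With irradiation, limma called 0 of 34 members, where 13% of all genes were called in either direction. Of the members 3 had an unadjusted p under 0.05, edgeR called 0 (11.9% of all genes) and DESeq2 called PSMA5 higher (18.4%). The GC slope fit had 6 members that rose and 2 fell, where 18.8% of all genes rose and 18.5% fell, so the share of members that rose was near that of all genes. PSMA5, PSMB3, PSMB4, PSMC2, PSMD2 and PSMD12 rose. PSMC3 and PSMD4 fell, and PSMC3 had the opposite sign in the main fit. Leaving out library 2 of WT solvent or of Mutant solvent brought the total of 8 down to 3.

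In the combination, limma called 1 of 34 members higher and 0 lower, where 7.63% of all genes were called higher and 6.29% lower. Of the members 7 had an unadjusted p under 0.05, edgeR called PSMA5 (12.4% of all genes in either direction) and DESeq2 called PSMA5, PSMA3 and PSMD12 (18.3%), all higher. limma called 13.9% in either direction. In the fit with the GC slope 22 members rose and 0 fell, where 22.2% of all genes rose and 21.7% fell. The 22 were 4 of the 7 tested alpha genes, all 7 tested beta genes, 4 of 6 base ATPases, 2 of 3 other base genes, 4 of 8 lid genes and 1 of 3 chaperones. This count was 17 to 23 when any 1 library was left out. Against irradiation alone, the combination gave 0 members called by limma, edgeR or DESeq2 (0% of all genes in limma and edgeR and 0.00484% in DESeq2), with 1 member at an unadjusted p under 0.05 and a median change of 0.10 (0.01 for all genes), with 28 members above 0. Under the GC slope that median was 0.23, beside -0.01 for all genes, with 33 of 34 members above 0, beside 48.8% of all genes. The 2 largest values of that comparison in the main fit were 0.41 ± 0.21 for PSMA4 and 0.39 ± 0.20 for PSMD10. With the GC slope PSMA7 (0.35 ± 0.09, adjusted p = 0.0409 in limma) and PSMC3 (0.34 ± 0.08, adjusted p = 0.0296) rose over irradiation, where 2.18% of all genes did. That count of 2 lay between 0 and 9 when 1 library was left out.

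**Figure D4:**
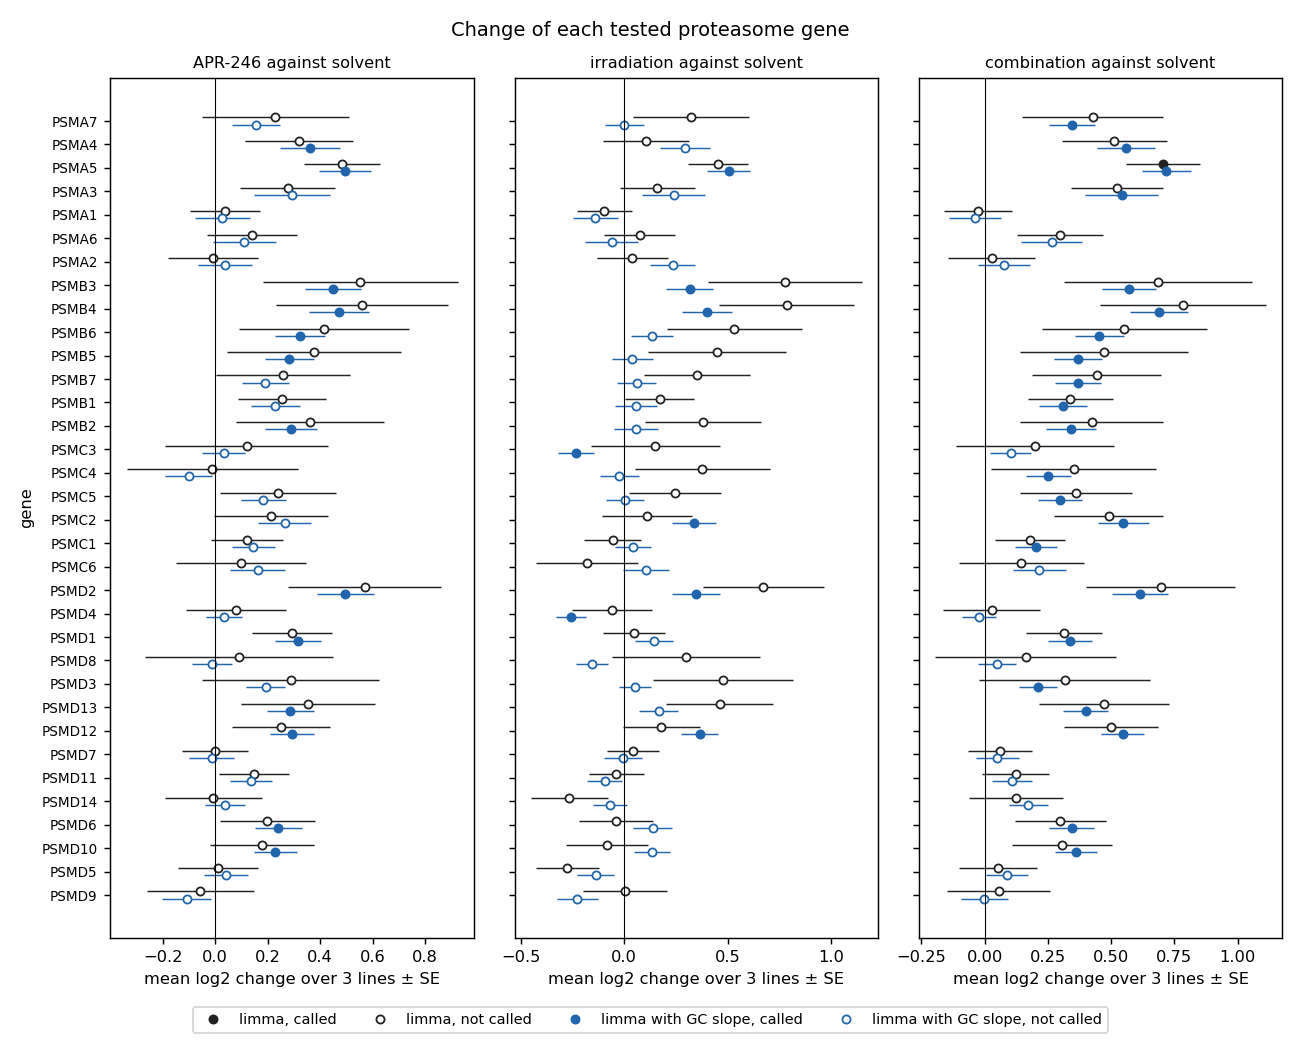
Mean log2 change over 3 lines with its standard error for each of the 34 tested genes, in the order of roles, for APR-246, irradiation and the combination against solvent. Black is the main limma fit, blue the fit with the GC slope, and filled points are called at an adjusted p of 0.05. In black only PSMA5 in the combination is filled; in blue 13, 8 and 22 points are filled.

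In the alpha ring PSMA5 stood highest against solvent. PSMA5 (chromosome 1, 109399031 to 109426427 in GENCODE 29, GRCh38) encodes a subunit of the ring that gates the barrel. It had 62.3, 73.2 and 88.9 CPM (lowest, median and highest of 6 libraries) with APR-246, 53.6, 64.6 and 93.1 with irradiation, 58.2, 96.8 and 118 in the combination and 34, 49.8 and 80.4 in solvent. The 3 ranges overlap that of solvent, where library 1 lay above library 2 in each line: in WT, PSMA5 had 110.1 and 118 CPM in combination libraries 1 and 2 and 80.4 and 34 in solvent libraries 1 and 2. The same pair was 94.2 and 72.3 against 66.4 and 37.2 CPM in Mutant and 99.4 and 58.2 against 62.3 and 37.0 in Null. PSMA5 rose by 0.70 ± 0.15 in the combination, a 1.63-fold change (limma adjusted p = 0.00454). This call was kept in all 24 fits that leave out 1 library, at 0.60 to 0.80. With APR-246 its change was 0.48 ± 0.15 (limma adjusted p = 0.0861) and with irradiation 0.45 ± 0.15 (adjusted p = 0.0525), both short of the threshold. With the GC slope it rose in all 3, by 0.50, 0.51 and 0.72 (limma adjusted p = 0.000672, 0.000529 and 4.66e-06).

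The other alpha genes had smaller values, none called in the main fit. PSMA7 had 263, 349.5 and 439 CPM with APR-246, 289.6, 364 and 403 with irradiation, 299.9, 432 and 484 in the combination and 240.3, 289.9 and 313 in solvent. Its combination change was 0.43 ± 0.28 (limma adjusted p = 0.357), and with the GC slope it rose by 0.35 there (adjusted p = 0.00347). PSMA4 rose by 0.56 and PSMA3 by 0.54 in the combination in that fit (adjusted p = 0.000463 and 0.00559). PSMA2, the lowest member, whose exons are shared, was at 0.0182, 0.158 and 0.475 CPM with APR-246, 0.0356, 0.204 and 0.423 with irradiation, 0.0550, 0.217 and 0.445 in the combination and 0, 0.190 and 0.621 in solvent. Its changes of -0.01 ± 0.17, 0.04 ± 0.17 and 0.03 ± 0.17 were not called, and each has the other sign in some setting.

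The beta ring had the largest median of the 6 groups of members in the main fit, at 0.38 for APR-246, 0.45 for irradiation and 0.47 for the combination. Its medians under the GC slope were 0.29, 0.06 and 0.37, the largest for the combination alone: the non-ATPase base had 0.32 with APR-246, and the alpha ring 0.23 and the non-ATPase base 0.14 with irradiation. All 7 tested genes were above 0 in each averaged comparison against solvent in both fits. With 1 library left out under the GC slope, PSMB5 and PSMB7 were below 0 with irradiation without WT solvent library 2 or Mutant solvent library 2 (lowest -0.043 and -0.027, both without WT solvent library 2). PSMB4, a structural subunit, had 146, 267 and 350.0 CPM with APR-246, 222, 279 and 319 with irradiation, 238, 314 and 349 in the combination and 127, 151 and 215 in solvent. In deposited CPM all irradiation and combination libraries were above all solvent libraries, and APR-246 overlapped with solvent. No share of all genes is given for this rule. On the TMM scale PSMB4 did not lie above solvent in all 3 lines, where 5.94% of all genes did with irradiation and 6.03% in the combination. In the main fit its changes of 0.56 ± 0.33, 0.78 ± 0.33 and 0.78 ± 0.33 were not called (limma adjusted p = 0.462, 0.127 and 0.13). Its values under the GC slope all passed: it rose by 0.47, 0.40 and 0.69 (limma adjusted p = 0.00371, 0.0121 and 5.48e-05). Leaving out library 2 of WT solvent or of Mutant solvent ended the irradiation call of PSMB4 (highest adjusted p = 0.122).

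PSMB3, also structural, had 91.3, 193 and 249 CPM with APR-246, 136, 206 and 239 with irradiation, 143, 197 and 275 in the combination and 79.8, 114 and 178 in solvent. The 4 ranges overlap. Its changes were 0.55 ± 0.37, 0.78 ± 0.37 and 0.69 ± 0.37, not called (limma adjusted p = 0.549, 0.183 and 0.253). PSMB3 rose with the GC slope by 0.45, 0.32 and 0.57, and of these the irradiation call was lost when any 1 of 7 libraries was left out: WT solvent 2, WT irradiation 2, Mutant solvent 2, Mutant irradiation 1 or 2, Null solvent 1 or Null irradiation 2 (highest adjusted p = 0.206).

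The 3 catalytic genes had smaller values than PSMB3 and PSMB4. PSMB5, which carries the chymotrypsin-like site, had 110.3, 166 and 205 CPM with APR-246, 135, 149 and 192 with irradiation, 129, 185 and 216 in the combination and 83.4, 112 and 147 in solvent. Its main changes of 0.38 ± 0.33, 0.45 ± 0.33 and 0.47 ± 0.33 were not called (limma adjusted p = 0.687, 0.4 and 0.398). PSMB5 rose under the GC slope with APR-246 (0.28, limma adjusted p = 0.0264) and in the combination (0.37, adjusted p = 0.00272), and had 0.04 with irradiation (adjusted p = 0.795). The APR-246 call was lost without WT solvent 2, WT APR-246 2, Mutant solvent 2, Mutant APR-246 2, Null solvent 1 or Null APR-246 2 (highest adjusted p = 0.15).

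PSMB6, with the caspase-like site, had 80.3, 144 and 175 CPM with APR-246, 111, 138 and 156 with irradiation, 109, 155 and 187 in the combination and 68.5, 93.1 and 130.1 in solvent. Its change in the combination was 0.55 ± 0.33 (limma adjusted p = 0.298), and with the GC slope it rose there by 0.45 (adjusted p = 0.000592). It also rose with APR-246 in that fit by 0.32 (adjusted p = 0.0144), a call lost without library 2 of WT solvent, WT APR-246, Mutant solvent, Mutant APR-246 or Null APR-246 (highest adjusted p = 0.105). PSMB7, with the trypsin-like site, had 106, 153 and 171 CPM with APR-246, 132, 147 and 166 with irradiation, 146, 170.0 and 195 in the combination and 96.9, 112 and 139 in solvent. The combination change of PSMB7 was 0.44 ± 0.26 (limma adjusted p = 0.289), called with the GC slope (0.37, adjusted p = 0.00182). In that fit PSMB7 was not called with APR-246 (0.19) or irradiation (0.06). In deposited CPM, PSMB7 was the one catalytic gene whose combination libraries all lay above its solvent libraries. Among the other members, PSMB2, PSMB4 and PSMD13 met this rule too. No share of all genes is given for it, so it does not set these members apart from other genes. On the TMM scale PSMB7 did not lie above solvent in all 3 lines, where 6.03% of all genes did. The structural PSMB1 and PSMB2 were the other members of the 7 that rose with the GC slope in the combination.

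**Figure D5:**
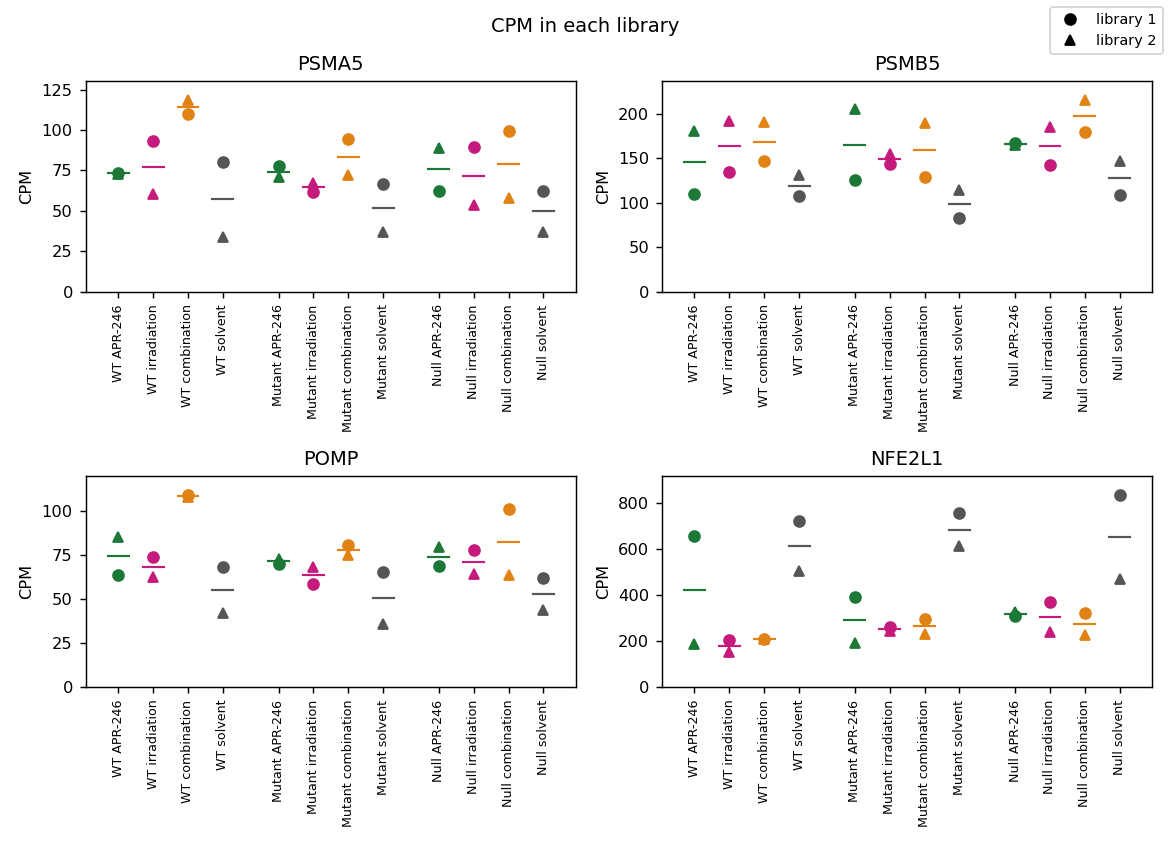
CPM in each library for PSMA5, PSMB5, POMP and NFE2L1 (vertical axes from 0), by line and treatment; circles are library 1, triangles library 2 and lines the mean of both. Combination libraries of NFE2L1 (209 to 323) and irradiation libraries (150 to 371) lie below all solvent libraries (471 to 834), while PSMA5 and POMP overlap with solvent.

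Among the base genes PSMD2, a scaffold that docks ubiquitin-like proteins, had the largest values. PSMD2 had 273, 535 and 675 CPM with APR-246, 352, 547 and 612 with irradiation, 401, 594 and 668 in the combination and 269.7, 296 and 406 in solvent. All 3 ranges overlap that of solvent, whose highest library lies just above the lowest combination library. Its changes of 0.57 ± 0.29, 0.67 ± 0.29 and 0.70 ± 0.29 were not called (limma adjusted p = 0.381, 0.146 and 0.134). The GC slope fit called PSMD2 in all 3, where it rose by 0.50, 0.35 and 0.61 (limma adjusted p = 0.00173, 0.0216 and 0.000107), the irradiation call being lost without library 2 of WT solvent or Mutant solvent (highest adjusted p = 0.139).

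PSMD1, the other large scaffold of the base, had main changes of 0.29 with APR-246, 0.05 with irradiation and 0.31 in the combination, and with the GC slope rose with APR-246 (0.32, limma adjusted p = 0.00938) and in the combination (0.34, adjusted p = 0.00334). The APR-246 call was lost without library 2 of Mutant APR-246 or Null APR-246 (highest adjusted p = 0.0528). PSMD4, the ubiquitin receptor, had 149.9, 181 and 201 CPM with APR-246, 136, 156 and 171 with irradiation, 153, 179 and 194 in the combination and 138, 158 and 173 in solvent, and main changes of 0.08 ± 0.19, -0.06 ± 0.19 and 0.03 ± 0.19. PSMD4 fell with irradiation under the GC slope (-0.26 ± 0.07, limma adjusted p = 0.00708), a call lost without Mutant solvent library 2 (adjusted p = 0.0501).

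Of the ATPases none was called in the main fit. PSMC4 had 130.1, 175 and 242 CPM with APR-246, 172, 231 and 253 with irradiation, 168, 243 and 292 in the combination and 128, 181 and 206 in solvent, with main changes of -0.01 ± 0.33, 0.38 ± 0.33 and 0.35 ± 0.33. With the GC slope it rose in the combination (0.25, limma adjusted p = 0.0259), a call lost without library 2 of WT solvent, WT combination, Mutant solvent, Mutant combination or Null solvent, or without Null combination library 1 (highest adjusted p = 0.123). PSMC2 rose in the combination in that fit by 0.55 (limma adjusted p = 0.000124), against 0.49 in the main fit. PSMC3 fell with irradiation there (-0.23 ± 0.09, limma adjusted p = 0.0347), but was 0.15 ± 0.31 in the main fit, and the call was lost when any 1 of 9 libraries was left out: both WT solvent, both Mutant solvent, both Null irradiation, WT irradiation 1, Mutant irradiation 1 or Null solvent 1 (highest adjusted p = 0.134).

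No lid gene was called in the main fit. PSMD14, the enzyme that takes the ubiquitin chain off, had 48.3, 67.3 and 85.3 CPM with APR-246, 38.6, 49.2 and 74.5 with irradiation, 34.8, 84.3 and 105 in the combination and 38.7, 62.0 and 100.5 in solvent, and main changes of -0.01 ± 0.19, -0.26 ± 0.19 and 0.12 ± 0.19. It was called in neither fit, and its APR-246 value has the other sign with the GC slope (0.04). PSMD12, a structural lid subunit, had 62.1, 76.7 and 105 CPM with APR-246, 55.3, 70.8 and 95.6 with irradiation, 46.3, 118 and 134 in the combination and 36.3, 58.1 and 125 in solvent. PSMD12 was 0.50 ± 0.19 in the combination in the main fit (limma adjusted p = 0.0889); the fit with the GC slope put its rise at 0.55 (adjusted p = 1.94e-05). In that fit PSMD12, PSMD13 and PSMD6 rose with APR-246, PSMD12 with irradiation, and all 3 and PSMD3 in the combination. PSMD7, PSMD8 and PSMD11 were called in no averaged comparison against solvent.

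The chaperones that help the base assemble stood lowest, with medians of 0.01 for APR-246, -0.08 for irradiation and 0.06 for the combination, and of 0.04, -0.14 and 0.09 with the GC slope. PSMD5 had main changes of 0.01 ± 0.15, -0.27 ± 0.15 and 0.05 ± 0.15, and PSMD9 had -0.06 ± 0.20, 0.00 ± 0.20 and 0.06 ± 0.20. PSMD5 and PSMD9 were called in neither fit, and PSMD9 with irradiation had -0.23 with the GC slope. PSMD10, also known as gankyrin, had 0.18 ± 0.20, -0.08 ± 0.20 and 0.31 ± 0.20. PSMD10 rose under the GC slope in the combination (0.36, limma adjusted p = 0.00109) and with APR-246 (0.23, adjusted p = 0.041). The APR-246 call was kept in 7 of 24 fits without 1 library (highest adjusted p = 0.162).

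The gap between members of low and high GC content was widest with irradiation. The 17 members with the lower GC content (up to 46.8%) and the 17 with the higher had main medians of 0.05 and 0.35 with irradiation, 0.20 and 0.24 with APR-246, and 0.31 and 0.36 in the combination. Under the GC slope these medians were 0.14 and 0.04, 0.23 and 0.18, and 0.34 and 0.30. The median SD within a group was 0.167 with the GC slope, against 0.35 without it, for the members, and 0.183 against 0.32 for all genes tested.

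Taken line by line, the combination had the largest median in WT (0.28), Mutant (0.45) and Null (0.29), beside 0.08, 0.43 and 0.15 for APR-246 and 0.16, 0.21 and 0.05 for irradiation. The combination medians with the GC slope were 0.33 in WT, 0.32 in Mutant and 0.22 in Null, beside 0.09, 0.30 and 0.14 for APR-246 and 0.02, 0.13 and 0.04 for irradiation. The WT irradiation median then lay below that of all genes (0.03), with 15 of 34 members above it. The main fit called 0 of 34 members in each of these 9 comparisons, where limma called 0%, 1.56% and 2.23% of all genes in WT for APR-246, irradiation and the combination, 0%, 0.0774% and 0.348% in Mutant, and 0.131%, 0.677% and 1.95% in Null. At an unadjusted p under 0.05 there were 0, 0 and 5 members in WT. Mutant had 1, 1 and 1 such members, and Null 0, 0 and 1. edgeR called 0 members in all 9, and DESeq2 called PSMA5 in the WT combination (4.78% of all genes) and 0 members in the other 8. Apart from that 4.78%, no share of all genes is given for these counts. They do not show whether members differed from other genes.

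The 2 largest member values of each line were not called. In WT they were PSMA5 (0.37 ± 0.25) and PSMD2 (0.31 ± 0.51) with APR-246, PSMB4 (0.76 ± 0.57) and PSMB3 (0.71 ± 0.64) with irradiation, and PSMA5 (0.86 ± 0.25, limma adjusted p = 0.0958) and PSMA4 (0.80 ± 0.36) in the combination. In Mutant they were PSMB3 (1.03 ± 0.64) and PSMB4 (1.01 ± 0.57) with APR-246, PSMB3 (1.21 ± 0.64) and PSMD2 (1.13 ± 0.51) with irradiation, and PSMD2 (1.04 ± 0.51) and PSMB3 (0.98 ± 0.64) in the combination. In Null they were PSMA5 (0.46 ± 0.25) and PSMD12 (0.44 ± 0.32) with APR-246, PSMB4 (0.54 ± 0.57) and PSMD2 (0.43 ± 0.51) with irradiation, and PSMB4 (0.85 ± 0.57) and PSMB3 (0.77 ± 0.64) in the combination. PSMB3, PSMB4 and PSMD2 each came up in all 3 lines, and PSMA5 in WT and Null. PSMB3, PSMB4 and PSMD2 also varied widely within groups, with SDs of 0.70, 0.60 and 0.52 beside a member median of 0.35. The treatments of a line share its solvent libraries. That these genes recur is thus no test of agreement between lines.

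With the GC slope, 0, 2 and 13 members were called in WT, where that fit called 0%, 18.1% and 21.7% of all genes in either direction. For Mutant these were 5, 2 and 7 members, beside 6.74%, 13.5% and 16.5% of all genes, and for Null 1, 1 and 4 members, beside 15.1%, 20% and 24.6%. All members called were higher except PSMC3 after irradiation in WT (-0.43). PSMA5 rose in the combination in all 3 lines, by 0.82 in WT, 0.70 in Mutant and 0.64 in Null (limma adjusted p = 0.00158, 0.00765 and 0.00886). PSMB4 did so too, by 0.82, 0.65 and 0.59 (limma adjusted p = 0.00547, 0.0295 and 0.0331). Single libraries decided these counts: the WT combination count of 13 was 1 without WT solvent library 2 and 0 without WT combination library 2. The Mutant count of 7 was 0 without library 2 of Mutant solvent or Mutant combination and 1 without Mutant combination library 1, and the Null count of 4 was 0 without Null solvent library 2 or Null combination library 1. Per line, the counts for APR-246 and irradiation lay between 0 and 8 when 1 library was left out.

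A test of whether the treatment response differs between lines called 0 of 34 members, where limma called 0.0339% of all genes. No member reached an unadjusted p of 0.05 in it, the lowest being 0.595. edgeR and DESeq2 called 0 members, where they called 0 and 35 of all genes tested. Under the GC slope 0 members were called, where 1.16% of all genes were, and the lowest unadjusted p was 0.105. In solvent, limma called 0 members in Mutant against WT (0.629% of all genes) and 0 in Null against WT (0.992%). In both, 0 members had an unadjusted p under 0.05 and edgeR and DESeq2 called 0 members, for which no share of all genes is given. The 2 largest values were -0.35 ± 0.58 for PSMB5 and -0.24 ± 0.44 for PSMB7 in Mutant, and 0.68 ± 0.38 for PSMC5 and 0.54 ± 0.64 for PSMB3 in Null. In Mutant that slope gave 0 members (5.09% of all genes). PSMC5 was higher in Null with the GC slope (0.52, limma adjusted p = 0.0344), where 8.64% of all genes were called in either direction, a call lost in fits that leave out 1 library (0 to 1 members called).

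Setting libraries side by side on the TMM scale, PSMA5 was higher in both irradiation libraries than in both solvent libraries of each of the 3 lines, as were 5.94% of all genes. In the combination PSMA5 and PSMB1 did the same, as did 6.03% of all genes, and with APR-246 0 members did (1.86%). None lay below both solvent libraries in all lines, beside 1.94%, 6.13% and 5.41% of all genes for APR-246, irradiation and the combination. These shares of members are no higher than those of all genes.

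NFE2L1, the activator of the proteasome genes described above, fell in all 3 treatments. NFE2L1 had 189, 318 and 655 CPM with APR-246, 150.0, 241 and 371 with irradiation, 209, 228 and 323 in the combination and 471, 668 and 834 in solvent. WT APR-246 library 1, at 655 CPM, lay among the solvent libraries. Irradiation and combination libraries all lay below them, a rule for which no share of all genes is given. NFE2L1 changed by -1.10 ± 0.21 with APR-246 (limma adjusted p = 0.012), -1.45 ± 0.21 with irradiation (adjusted p = 0.000594) and -1.50 ± 0.21 in the combination (adjusted p = 0.00038). The APR-246 call was lost without library 2 of Mutant APR-246 or Null APR-246 (highest adjusted p = 0.0571), and both others were kept in all 24 fits. Within WT, NFE2L1 fell with irradiation (-1.77, limma adjusted p = 0.0247), and had 206 and 150.0 CPM in irradiation libraries and 724 and 503 CPM in solvent libraries.

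Of the 12 genes in the list for control through NFE2L1, 0 rose and 2 fell with APR-246, 0 and 3 with irradiation, and 0 and 5 in the combination, with medians of -0.31, -0.30 and -0.45, where limma called 1.96%, 6.13% and 6.29% of all genes lower and 1.19%, 6.84% and 7.63% higher. With the GC slope 13.5%, 18.8% and 22.2% of all genes rose and 13.9%, 18.5% and 21.7% fell. Of this list, that fit had 1 that rose and 7 that fell with APR-246, 1 and 6 with irradiation, and 1 and 8 in the combination. HCFC1, a cofactor of transcription, was the gene that rose in all 3 there (0.52, 0.29 and 0.23), calls kept in 24, 22 and 16 of 24 fits without 1 library (highest adjusted p = 0.141). MAFF, a small MAF partner, fell with APR-246 (-0.88, limma adjusted p = 0.0221) and in the combination (-0.65, adjusted p = 0.039). NFE2L2, the related factor NRF2, fell with irradiation (-1.41, adjusted p = 0.013) and in the combination (-1.07, adjusted p = 0.0469). SEL1L and SYVN1, partners in the ubiquitin ligase of the endoplasmic reticulum that removes NFE2L1, also fell. SEL1L did so with irradiation (-1.53, adjusted p = 0.0148) and in the combination (-1.48, adjusted p = 0.0158), and SYVN1 in the combination (-0.58, adjusted p = 0.0367). MAFF lost the APR-246 call without library 2 of any solvent or APR-246 group. Of 24 fits without 1 library, the calls were kept in 18 and 11 for MAFF (highest adjusted p = 0.101 and 0.117), 23 and 8 for NFE2L2 (0.0511 without Null solvent 1, and 0.144), 20 and 20 for SEL1L (0.057 and 0.0559) and 11 for SYVN1 (0.102). SEL1L lost the irradiation call without WT solvent 1, WT irradiation 2, Mutant solvent 1 or Null solvent 1, and the combination call without Null solvent 1 or combination library 2 of any line. Under the GC slope each of these calls of MAFF, NFE2L2, SEL1L and SYVN1 was kept in all 24. On CPM without TMM scaling NFE2L2 and SEL1L kept their direction and lost their calls (lowest adjusted p = 0.083).

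Among 6 assembly factors outside the rule, limma called 0 with APR-246 (2 at an unadjusted p under 0.05, 0 by edgeR, 1 by DESeq2). It called 1 higher with irradiation and 2 higher in the combination, and 0 lower, where 1.19%, 6.84% and 7.63% of all genes were called higher. The medians of the 6 were 0.05, 0.10 and 0.22. Their medians with the GC slope were 0.03, -0.08 and 0.19. In that fit 2, 2 and 3 rose and 0 fell, where 13.5%, 18.8% and 22.2% of all genes rose. The assembly factors that rose were POMP and PSMG2 in all 3 and PSMG1, the partner of PSMG2, in the combination (0.32). Its POMP call with APR-246 was lost without Mutant solvent library 2 (limma adjusted p = 0.051), its POMP call with irradiation in 7 of 24 fits without 1 library (highest adjusted p = 0.271), and its other calls were kept in all 24. POMP, the maturation factor of the core, had 63.6, 71.5 and 85.3 CPM with APR-246, 58.6, 66.5 and 78.0 with irradiation, 63.6, 91.1 and 109 in the combination and 36, 53 and 68.4 in solvent. It rose in the combination by 0.64 ± 0.15 (limma adjusted p = 0.0116), a call kept in all 24 fits without 1 library, and had 0.43 ± 0.15 with APR-246 (adjusted p = 0.166) and 0.37 ± 0.15 with irradiation (adjusted p = 0.132). PSMG2, which pairs alpha subunits, rose with irradiation (0.54, limma adjusted p = 0.0299) and in the combination (0.62, adjusted p = 0.0142). PSMG2 kept the irradiation call in 17 of 24 fits without 1 library (highest adjusted p = 0.109). It kept the combination call in 22, losing it without WT combination library 2 or Null solvent library 1 (highest adjusted p = 0.0572).

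The immunoproteasome genes were not called in the main fit, and PSMB8 and PSMB10 stayed low. PSMB8 had 0.0896 to 1.02 CPM over the 24 libraries, PSMB9 2.12 to 26.3 and PSMB10 0.415 to 4.89. Their changes were -0.28, 0.44 and -0.19 with APR-246, 0.21, 0.65 and 0.33 with irradiation, and -0.11, 0.39 and 0.43 in the combination. PSMB9 rose with APR-246 under the GC slope (0.35, limma adjusted p = 0.0386), a call kept in 14 of 24 fits without 1 library (highest adjusted p = 0.183). In the list of 8 immunoproteasome and regulator genes, limma called 0 with APR-246 or irradiation and 1 higher in the combination, with medians of 0.14, 0.27 and 0.28. At an unadjusted p under 0.05 the list had 1 and 1 in the first 2 comparisons, where edgeR called 0 and 0 and DESeq2 0 and 1. The GC slope fit called 13.5%, 18.8% and 22.2% of all genes higher and 13.9%, 18.5% and 21.7% lower. In this list it called 3 higher and 1 lower with APR-246, 2 and 2 with irradiation, and 2 and 1 in the combination. The medians of the list in that fit were 0.08, -0.01 and 0.20. The gene called in the main fit was PSME2, a subunit of an alternative cap (0.49, limma adjusted p = 0.0275), kept in 15 of 24 fits without 1 library (highest adjusted p = 0.0995).

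Several enzymes and receptors that dock on the proteasome were called lower after irradiation in the main fit. Of 12 such genes limma and edgeR called 0 with APR-246 (1 by DESeq2, 1 at an unadjusted p under 0.05), 4 fell with irradiation and 1 fell in the combination, with medians of -0.12, -0.28 and -0.14. Of all genes, limma called 1.96%, 6.13% and 6.29% lower in these comparisons. Under the GC slope 0 rose and 4 fell with APR-246, 0 and 7 with irradiation, and 1 and 6 in the combination. Of all genes, 13.5%, 18.8% and 22.2% rose and 13.9%, 18.5% and 21.7% fell in that fit. The gene that rose was SEM1, a small lid subunit (0.37, kept in 18 of 24 fits without 1 library, highest adjusted p = 0.209). With irradiation UCHL5, a deubiquitinase of the base, changed by -0.88 (limma adjusted p = 0.00672), ECPAS, an adaptor, by -0.87 (adjusted p = 0.0135), the shuttle receptor RAD23B by -0.63 (adjusted p = 0.021) and TXNL1, a thioredoxin bound to the cap, by -0.52 (adjusted p = 0.0153). ECPAS also fell in the combination (-0.70, adjusted p = 0.0371). UCHL5 kept its call in all 24 fits without 1 library. TXNL1 kept it in 21, losing it without Mutant irradiation 1, Null solvent 1 or Null irradiation 2 (highest adjusted p = 0.0746), and RAD23B in 17 (0.0789). ECPAS kept the irradiation call in 22, losing it without WT irradiation 2 or Null solvent 1 (0.0562), and the combination call in 12 (0.119). On CPM without TMM scaling the calls of UCHL5, ECPAS, RAD23B and TXNL1 were lost (adjusted p = 0.115 to 0.357) and their direction was kept.

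Of 7 genes of the p97 segregase, which pulls ubiquitin-tagged proteins out of complexes, limma and edgeR called 0 with APR-246 (1 by DESeq2, 1 at an unadjusted p under 0.05), and FAF1, a cofactor, fell with irradiation (-0.47, limma adjusted p = 0.0246, kept in 16 of 24 fits without 1 library, highest adjusted p = 0.119) and in the combination (-0.56, adjusted p = 0.00801, kept in all 24). In the GC slope fit 2 rose and 2 fell with APR-246, 0 and 4 with irradiation, and 2 and 2 in the combination. Of all genes, 13.5%, 18.8% and 22.2% rose and 13.9%, 18.5% and 21.7% fell in that fit. The medians of the 7 were 0.02, 0.06 and -0.05 in the main fit and -0.05, -0.19 and -0.11 with the GC slope. Both calls of FAF1 were lost on CPM without TMM scaling (limma adjusted p = 0.0683). Of 6 ubiquitin and E1 genes limma in the main fit and edgeR called 0 in any of the 3 comparisons, with medians of -0.08, -0.13 and -0.08. In each comparison 1 of them had an unadjusted p under 0.05, and DESeq2 called 0, 0 and 1. Beside the same shares of all genes as above, the limma fit with the GC slope called 1 higher and 2 lower with APR-246. It called 0 and 3 with irradiation, and 1 and 2 in the combination. Those that fell included RPS27A, which encodes ubiquitin fused to a ribosomal protein, in all 3 (-0.27, -0.49 and -0.37). RPS27A kept the APR-246 call in 20 of 24 fits without 1 library (highest adjusted p = 0.0951), and its other calls in all 24.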

How the data were processed

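Polyadenylated RNA of 24 HCT116 samples was read as 100-base pairs on a BGIseq500 instrument, per the labels' protocols. Per the submitters' processing notes, FastQC, STAR, featureCounts from Subread and the build GRCh38.p13 were used; versions, annotation and strand setting are not given in the sources used here. The deposited values are CPM per gene. All values were whole reads within 0.05 of a read (100%), so reads were recovered for the filter, edgeR 4.0.16 and DESeq2 1.42.0; the floor covers counting error only. Symbols came from a gene table (60419 of 60675 IDs matched), positions, exon lengths and GC content from GENCODE 29, and promoters from RefSeq.

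Genes were kept by filterByExpr (minimum count 10). limma 3.58.1 with trend and robust moderation (R 4.3.3) was fitted to log2(TMM-scaled CPM + 0.5), with 12 group coefficients and 12 residual degrees of freedom, and Benjamini-Hochberg adjustment over 20668 genes at 0.05; log2 changes understate those of low genes. Errors of log2 changes are standard errors. The scripts were tested on simulated data. The second fit adds the GC slope of each library, taken over genes with a mean log2 of at least 2 (98.3% of tested genes have a GC value), and leaves 11 degrees of freedom. Averaged comparisons give the 3 lines equal weight and compare 6 libraries with 6; a comparison within a line sets 2 libraries against 2.

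Genes named are the called members, up to 4 per direction, or the 2 with the largest value, plus PSMB5, PSMB6, PSMB7, PSMC4, PSMD1, PSMD4, PSMD14, the chaperones and the members of the highest and lowest level; PSMA3, PSMA4, PSMB3, PSMB4, PSMC2, PSMC3, PSMD2, PSMD12, PSMG1, HCFC1, SEM1 and RPS27A were added after their values were seen. Members and lists were chosen with earlier results of these data known. Replicates of a group differed by more than sampling noise, so none was counted as a copy of another. Alternatives were edgeR, DESeq2, no filter, a pseudocount of 1, median-ratio size factors, CPM without TMM scaling, the replicate number as a block, the GC slope and each library left out. Results for 1 of the marker genes and 1 of the list genes are not reported here.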

Additional observations from a re-analysis of the deposited data

How the results depend on the processing

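Of 5974 values of single genes and medians under the alternatives, 4400 kept direction and side of the threshold, 1121 newly passed it, 128 no longer did and 325 had the other sign. Members called with APR-246, irradiation and the combination, averaged over lines, were 0, 0 and 1 as reported, without filter, with pseudocount 1 or by edgeR. They were 0, 1 and 1 with median-ratio size factors, 1, 1 and 3 by DESeq2, 1, 4 and 12 on CPM without TMM scaling (which moved the median of all genes by at most 0.07 in these comparisons and 0.15 in any), and 13, 8 and 22 with the GC slope. Libraries with the same number deviated together in 11 of 12 groups: their deviations correlated at 0.38 to 0.90 over 55 pairs of groups, and at -0.56 to -0.14 over the 11 pairs with Null APR-246. The labels give no meaning to the number and not every pair was positive, so it was not taken as a pairing. The replicate block gave 3, 9 and 16 members, the block with the GC slope 19, 11 and 24, and the block with the numbers of Null APR-246 crossed, an alternative added after seeing the data, 6, 12 and 18. For the combination against irradiation the GC slope gave 2 and all others 0. In WT, irradiation had 2 (GC slope), 5 (block with GC slope) and 1 (crossed block), and the combination 13, 9 and 4, and 1 by DESeq2 or the replicate block. In Mutant, APR-246 had 5, 13 and 3, irradiation 2, 7 and 10 and 4 with the replicate block, and the combination 7, 18 and 6 and 2 with the replicate block. In Null, APR-246 had 1 and 2, irradiation 1 and 2 (GC slope, block with GC slope), and the combination 4, 11 and 4. Null against WT in solvent had 1 in each of these 3 fits. Leaving out 1 library, with or without the GC slope (the fits with it were added after seeing the data), gave 0 to 17, 0 to 9 and 1 to 23 members averaged, 0 to 9 for combination against irradiation, 0 to 3, 0 to 2 and 0 to 14 in WT, 0 to 8, 0 to 5 and 0 to 9 in Mutant, 0 to 3, 0 to 1 and 0 to 6 in Null, and 0 to 1 for Null against WT. The cause of these shifts was not tested. Shares of all genes called stand above for the main fit and the GC slope, and for edgeR and DESeq2 in averaged comparisons. Counts under the other settings have no such share beside them. They do not show whether members were called more often than all genes.

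When 1 library was left out, with or without the GC slope, signs changed for the following genes. With irradiation the log2 change of PSMB5 lay between -0.043 and 0.63, of PSMB7 -0.027 and 0.48, of PSMA7 -0.053 and 0.49, of PSMA2 -0.10 and 0.30, of PSMC4 -0.068 and 0.57, of PSMD1 -0.012 and 0.17, of PSMD4 -0.30 and 0.061, of PSMD9 -0.25 and 0.15, of PSMD10 -0.22 and 0.17, of PSMB8 -0.013 and 0.34, of PSMB10 -0.23 and 0.54, and of PSMC3 -0.26 and 0.35. With APR-246 the log2 change of PSMA2 lay between -0.15 and 0.14, of PSMC4 -0.21 and 0.19, of PSMD4 -0.041 and 0.20, of PSMD14 -0.12 and 0.11, of PSMD5 -0.077 and 0.10, of PSMD9 -0.20 and 0.094, of PSMB10 -0.41 and 0.020, and of PSMC3 -0.084 and 0.33. In the combination the log2 change of PSMA2 lay between -0.12 and 0.17, of PSMD4 -0.10 and 0.15, of PSMD5 -0.040 and 0.14, of PSMD9 -0.10 and 0.20, of PSMB8 -0.23 and 0.017, and of PSMC3 -0.0091 and 0.40. The GC slope turned the sign of PSMA2 (0.037) and PSMD14 (0.037) with APR-246, PSMC4 (-0.024), PSMD9 (-0.23), PSMD10 (0.14), PSMB10 (-0.062) and PSMC3 (-0.23) with irradiation, and PSMD4 (-0.022) and PSMD9 (-0.0019) in the combination. The replicate block with the GC slope turned the sign of PSMA2 (0.034) and PSMD14 (0.059) with APR-246, PSMD14 (0.027), PSMD9 (-0.16), PSMD10 (0.21), PSMB8 (-0.082) and PSMC3 (-0.13) with irradiation, and PSMD4 (-0.0063) in the combination. edgeR turned the sign of PSMD9 (-0.029) with irradiation and PSMA2 (-0.12) in the combination. DESeq2 turned the sign of PSMD9 (-0.016) with irradiation and PSMA2 (-0.11) in the combination. Testing without a filter turned the sign of PSMC4 (0.014) and PSMD14 (0.017) with APR-246. CPM without TMM scaling turned the sign of PSMC4 (0.066), PSMD14 (0.068) and PSMD9 (0.016) with APR-246. Of these, PSMC3 with irradiation alone passed the threshold with its sign turned, in 16 fits.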
